A study of Homo sapiens with 12 samples.

Results

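Precision run-on sequencing (PRO-seq), which sequences the RNA that engaged RNA polymerases extend in isolated nuclei, was used to ask whether 2 inducible lines of Mia PaCa-2, a human pancreatic carcinoma cell line, answered doxycycline (Dox) in the same way. One line is labelled as carrying Dox-inducible MYC-3xHA and is called the MYC-labelled line here, and the other is double integrated with MED30 and MYC-3xHA and is called the MED30&MYC line. Each line was sequenced without Dox and after 0.5 μg/ml Dox for 1 day by the series' design, with 2 libraries per group, so that 8 of the 12 libraries of the series were used. The results text of the study gives 2 days of induction. The comparison was the difference of responses, that is, the log2 fold change of Dox over control in the MED30&MYC line minus the same fold change in the MYC-labelled line. A positive difference means a higher response in the MED30&MYC line, which can come from a stronger rise there or from a deeper fall in the MYC-labelled line. It was tested for 19318 of the 28278 symbols.

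MYC is a transcription factor that pairs with MAX, binds E-box sequences near promoters and is known for raising genes of ribosome production and growth, while the MXD proteins and MNT compete with it for MAX. MED30 is a subunit of Mediator, the large complex that connects transcription factors bound at enhancers and promoters with RNA polymerase II. Both genes lie on chromosome 8 in GRCh38.p14, MED30 at chr8:117520713-117540262 and MYC at chr8:127735434-127742951, by the RefSeq annotation. A nascent RNA assay reads transcription itself, before splicing and decay of the RNA, and each value below is a level of such reads over the whole gene on its own strand.

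Both lines carry the Dox-regulated promoter and the Dox-sensing protein of an all-in-one vector, and whether the cells are 1 clone or a pool is not given in the sources used here. Control libraries of a vector-only line with Dox were not analysed here, so a response to Dox itself cannot be told apart from a response to the induced gene. Line and any processing batch that goes with it cannot be told apart either. No spike-in values were used here, and all values are changes relative to the other genes. Of the 8 libraries, 7 held 20616713 to 29881914 counts, and control 2 of MED30&MYC held 1257499. Rows of structured small RNAs took 2.37 to 3.16% of the counts in the MYC-labelled line and 1.16 to 1.45% in the other, and their part in the differences was not tested beyond a fit without those rows, which called 231 genes where the fit with them called 207. Nothing says that replicates came from separate cultures, and the p-values then reflect spread among these libraries alone, which may be technical spread. KRT8 and VIM, listed here for this carcinoma line, lay at 178 to 256 CPM and 477 to 1110 CPM in the 8 libraries. VIM is not particular to carcinoma cells. PTPRC of leukocytes did not exceed 1.45 CPM and LUM of fibroblasts 0.0316 CPM. COL3A1, also on the fibroblast list, lay at 17 to 58.7 CPM and was higher in the MYC-labelled line. CD68, on the leukocyte list with PTPRC, lay at 30 to 45.8 CPM, and the 3 other genes of that list did not exceed 0.598 CPM. On the endothelial and acinar lists the highest values were 8.87 CPM for VWF and 10.3 CPM for CPA1.

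MYC and MED30 were examined first, because they check the labels. In the MYC-labelled line MYC stood at 398 and 387 CPM (counts scaled by TMM and by library total, CPM) in the controls and at 269 and 261 CPM with Dox. In the MED30&MYC line it stood at 279 and 300 CPM in the controls and at 659 and 623 CPM with Dox. The Dox libraries thus lay below their controls in the line labelled for MYC and above them in the other, with no overlap in either line. Measured in log2 units, the difference of responses was 1.72 (standard error 0.14, edgeR adjusted p = 3.68e-09), and it lay between 1.68 and 1.77 when any 1 library was left out. Reads of an integrated cDNA that map to a gene are in the same row as those of the endogenous copy.

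MED30 went from 32.9 and 32.1 CPM to 815 and 620 CPM with Dox in the MYC-labelled line, although the labels name no MED30 construct there. It went from 53.6 and 58.1 CPM to 1480 and 1530 CPM in the MED30&MYC line. The responses of MED30 were 4.46 and 4.78 on the log2 scale (edgeR adjusted p = 1.58e-21 and 1.75e-21). Their difference of 0.32 (standard error 0.17, edgeR adjusted p = 0.45) did not pass, and without Dox library 1 of the MYC-labelled line it was 0.54 (edgeR adjusted p = 0.037). By these 2 genes the libraries labelled MYC show an induction of MED30 and a fall of MYC.

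**Figure D1:**
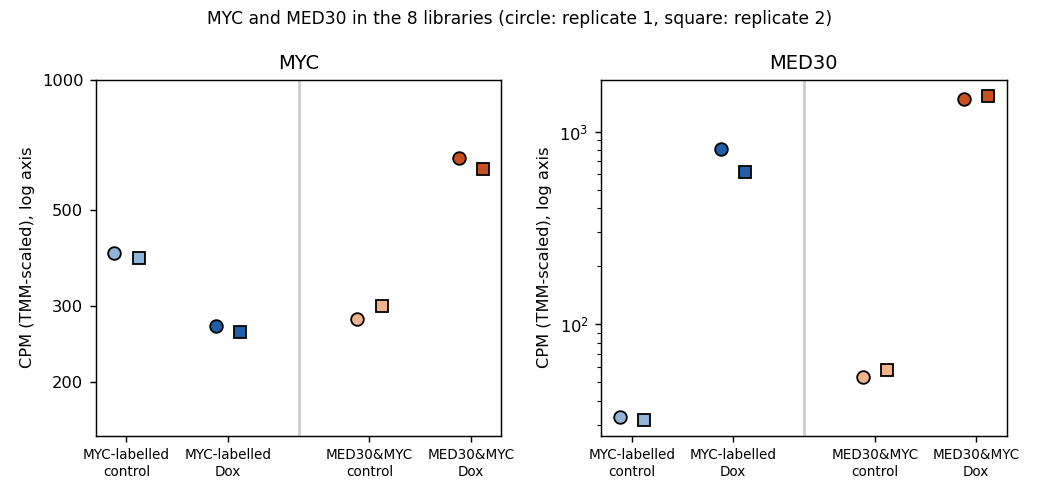
Level of MYC (left) and MED30 (right) in each of the 8 libraries, in TMM-scaled CPM on a log axis; each point is 1 library, circles are replicate 1 and squares replicate 2, and the grey line parts the 2 lines. MYC lies lower with Dox in the MYC-labelled line (269 and 261 CPM) and higher with Dox in the MED30&MYC line (659 and 623 CPM), while MED30 is higher with Dox in both.

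The 4 tables labelled MED30 were therefore set beside the 8 libraries, as a further check of the labels. They hold scaled values in place of counts, and 10822 shared symbols with a mean of at least 50 in both kinds of table were compared. Each table labelled MED30 was closest to the library of the MYC-labelled line with the same treatment and replicate number. The robust spread of the log2 ratio was 0.0488 to 0.0629 for these 4 pairs, and 0.131 to 0.25 for the library of the MYC-labelled line next in order. The log ratio of control replicate 1 over 2 in the MED30 tables had a Pearson correlation of 0.889 across genes with that of the MYC-labelled controls and of -0.0869 with that of the MED30&MYC controls. For the Dox replicates the values were 0.913 and -0.215. Genes are not independent replicates, and these correlations are descriptions. MYC stood at 2565 and 2497 in the control tables labelled MED30 and at 1851 and 1875 with Dox, and MED30 at 178 and 169 and at 4144 and 4150, in scaled values. The difference of responses below is thus one between libraries labelled MED30&MYC and libraries labelled MYC in which MED30 is the gene that rose.

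Across all genes, 207 of 19318 differed in their Dox response at an adjusted p under 0.05, which is 1.07% of the genes tested. The response was higher in the MED30&MYC line for 138 genes (0.714%) and lower for 69 (0.357%). The higher share of the calls was 66.7%, and with scaling by library size alone it was 43.3% of 326 calls. At an unadjusted p under 0.05, 2415 genes (12.5%) differed. The median difference of all genes was 0.035, and the median size of a called difference was 0.74 for the higher genes and -0.77 for the lower ones. The Dox response itself was called for 1302 genes in the MED30&MYC line (6.74%) and for 2518 in the MYC-labelled line (13%). By thresholds taken from the study's text, a log2 value beyond 0.35 in size and an unadjusted p under 0.05, 1970 genes (10.2%) differed, 1133 higher (5.86%) and 837 lower (4.33%). All 4 log ratios of Dox over control in one line lay beyond all 4 of the other for 137 of the 138 higher and 68 of the 69 lower genes. Among all tested genes this was so for 17.4% in the higher and 9.18% in the lower direction, and nothing is read from the counts since the calls use the same values.

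The levels themselves set the lines far apart. The controls differed between the lines for 11635 genes (60.2%), 30% of the tested genes being higher and 30.2% lower in the MED30&MYC line, and the Dox libraries for 12523 (64.8%), 32.8% higher and 32% lower. These contrasts share libraries with the difference of responses.

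The called differences arose in several ways, sorted here by whether the response of each line was itself called. No call is not the same as no response. The MED30&MYC line had 1 control of 1257499 counts and fewer calls, 1302 against 2518. RSAD2, without a call there, stood at a log2 response of 0.50 (edgeR adjusted p = 0.0508). Of the 138 higher genes, 65 fell in the MYC-labelled line with no call in the MED30&MYC line, and 51 rose in the MED30&MYC line with no call in the other. A further 12 rose in both lines and 9 rose in the MED30&MYC line while they fell in the MYC-labelled line, MYC among them. Of the 69 lower genes, 35 rose in the MYC-labelled line only by the calls, 18 fell in the MED30&MYC line only, 11 rose in both, 3 fell in both (KRT80, KIAA1755 and LNCAROD) and 2 moved in opposite directions (PLIN2 and UBALD2). THADA was called in neither line but in the difference, at 0.58. Most of the called differences, 160 of 207, were below 1 in size on the log2 scale.

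**Figure D2:**
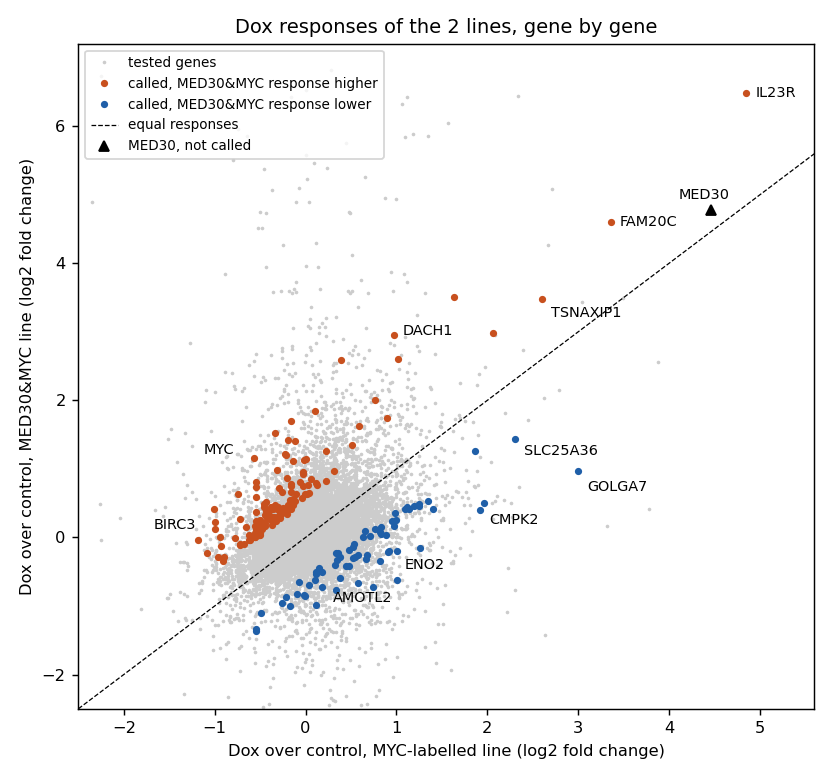
Log2 fold change of Dox over control in the MYC-labelled line (x axis) against that in the MED30&MYC line (y axis), with 1 point per tested gene; orange and blue points are the 138 and 69 genes whose responses differed, and the dashed line marks equal responses. Within the drawn range, which leaves out 30 genes, the called genes lie along both sides of the dashed line, and IL23R, FAM20C and MED30 rise far in both lines.

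The 2 Dox libraries of the MYC-labelled line were the least alike. The chi-square per gene between replicates, which also grows with depth, was 11.6 there and 1.6 to 4.14 in the other groups. How this bears on the counts below was not tested. The count of called genes depended on single libraries. It was 50 and 57 without control 1 or 2 of the MYC-labelled line, 876 and 450 without its Dox library 1 or 2, and 62 and 65 without Dox library 1 or 2 of MED30&MYC. Without the deep control 1 of MED30&MYC, which leaves the control of 1257499 counts alone, 18 genes were called, and without that shallow control 153 were. In the fit without control 1 the direction was the same for 206 of the 207 genes. Nothing is read from that share, since every library of that fit was also used to call these genes. AMOTL2, BIRC3, SORBS2, MYC, LRRC49, GOLGA7, SCFD2 and SLC7A11 were called in all 8 of these fits, and the 4 of them outside the naming rule (SORBS2, LRRC49, SCFD2 and SLC7A11) are named here after their values were seen. SORBS2, an adaptor protein gene of the actin cytoskeleton, went from 38 and 27.9 to 86 and 87.9 CPM in the MED30&MYC line and from 62.8 and 63.4 to 81.3 and 65.6 CPM in the other, a difference of 1.05 (standard error 0.16, edgeR adjusted p = 0.000578). LRRC49 and SCFD2 differed by 1.00 and 0.80.

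**Figure D3:**
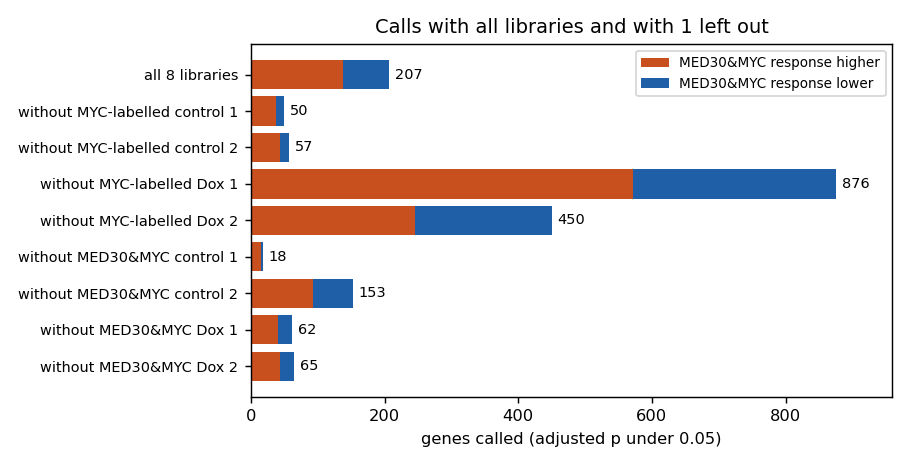
Number of genes called in the difference (x axis) with all 8 libraries and with each library left out; orange is the part with a higher response in the MED30&MYC line and blue the part with a lower one. The count runs from 18 without control 1 of MED30&MYC to 876 without Dox library 1 of the MYC-labelled line.

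Among genes with a mean log2 CPM above 2, most of the largest higher responses belonged to genes at low levels, and IL23R and MYC were exceptions. IL23R, the receptor subunit for interleukin-23, stood at 2.39 and 2.23 CPM in the MYC-labelled controls and at 70.3 and 63.5 CPM with Dox. It went from 1.45 and 0.735 CPM to 126 and 126 CPM in the MED30&MYC line. It rose in both lines, and its rise was 1.63 larger in the MED30&MYC line (standard error 0.28, edgeR adjusted p = 0.00189). The value of 0.735 CPM is that of 1 count in the shallow control, and without the deep control the difference was 2.58 and the call was lost (edgeR adjusted p = 0.222).

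DACH1, a transcriptional regulator of the dachshund family, had the largest called difference by the naming rule, 1.98 (standard error 0.38, edgeR adjusted p = 0.0069). It went from 2.95 and 3.32 CPM to 5.18 and 7.04 CPM in the MYC-labelled line and from 1.25 and 1.47 CPM to 10.1 and 9.53 CPM in the MED30&MYC line, so that the order of the lines turned over with Dox. Further genes that rose in both lines, and more in the MED30&MYC line, were the noncoding RNA genes LOC100507642 (difference 1.88) and LINC01060 (1.58). HSD17B10, a mitochondrial dehydrogenase gene, differed by 1.73, and BTK, a tyrosine kinase known from B cells, by 1.60. Both rose in the MED30&MYC line only by the calls. In the shallow control BTK had 0 counts, HSD17B10 4 and DACH1 2. With 1 library left out, the difference ran from 0.81 to 1.97 for HSD17B10 and from 1.48 to 10.07 for BTK. NXPH3, which encodes a secreted neurexin ligand, differed by 1.46 with control levels of 11.4 and 10.4 CPM in the MYC-labelled line and 1.18 and 1.47 CPM in the other.

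Neighbouring genes were among the called ones. LINC00304 on chromosome 16 differed by 1.52 and CDH15, a cadherin gene that starts within 100 kb of it, by 1.24. LINC00304 had 5 counts in the shallow control, and its difference ran from 0.64 to 1.68 with 1 library left out. TUBA3FP, a tubulin pseudogene on chromosome 22, differed by 1.42 and the overlapping THAP7-AS1 by 0.78, and both fell in the MYC-labelled line without a call in the MED30&MYC line. Reads of overlapping genes and of near-identical tubulin copies could be split between rows, so the TUBA3FP value is uncertain. Among called genes with coordinates, 23 of 135 higher genes (17%) had another higher gene within 100 kb, against 3.04% of all tested genes. For the lower genes these shares were 12 of 69 (17.4%) and 1.56%.

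GOLGA7, the partner protein of an enzyme that adds palmitate to RAS, had the lowest difference of the genes above that level, -2.03 (standard error 0.16, edgeR adjusted p = 4.14e-09). It stood at 11.1 and 8.66 CPM in the MYC-labelled controls and at 80.4 and 78.1 CPM with Dox. The MED30&MYC controls were already at 35.3 and 28.7 CPM and the Dox libraries at 68.3 and 65.2 CPM. The Dox levels of the lines were thus closer to each other than the control levels. FAM20C, a kinase gene of secreted proteins singled out after its values were seen, also moved from unequal controls to close Dox levels, from 56.3 and 58.4 to 567 and 606 CPM in the MYC-labelled line and from 25.5 and 30.9 to 626 and 650 CPM in the other, a difference of 1.24 in the opposite direction. SLC25A36, a mitochondrial nucleotide carrier gene singled out in the same way, rose in both lines and had a difference of -0.87, from 106 and 102 to 570 and 460 CPM in the MYC-labelled line and from 146 and 147 to 389 and 405 CPM in the other.

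ENO2, an enolase of glycolysis known from neurons, went from 21.4 and 21.2 CPM to 41.0 and 44.9 CPM in the MYC-labelled line. In the MED30&MYC line the controls read 24.2 and 11.8 CPM and the Dox libraries 20.0 and 19.1 CPM. The difference of -1.21 (standard error 0.19, edgeR adjusted p = 0.00102) rested on the deep control, since it was -0.26 (edgeR adjusted p = 0.783) without it. AMOTL2, an angiomotin-like gene of the Hippo pathway, fell with Dox in the MED30&MYC line only by the calls, from 170 and 173 CPM to 106 and 100 CPM, against 216 and 204 CPM and then 236 and 239 CPM in the MYC-labelled line. Its difference was -0.90 (standard error 0.13, edgeR adjusted p = 0.000297), and the noncoding LINC02004 within 100 kb of it differed by -1.09. Other genes of the lower set were CCM2L (-1.46), TMEM40 (-1.42), the zinc finger genes ZNF563 (-1.24) and ZIC5 (-1.11), IL15RA, a receptor chain for interleukin-15 (-1.16) and LINC01970 (-1.11). None of these calls held in every fit with 1 library left out. The difference ran from -1.34 to -0.85 for ZIC5 and from -1.74 to -0.95 for LINC01970 in those fits.

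**Figure D4:**
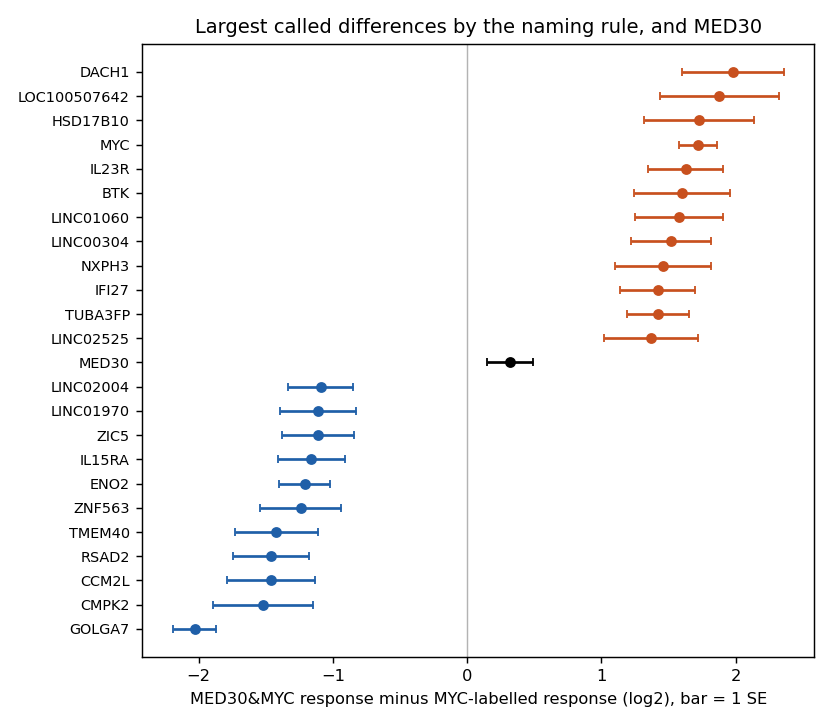
Difference of the Dox responses (log2, MED30&MYC minus MYC-labelled) for the 12 highest and 11 of the lowest called genes by the naming rule and for MED30; points are the fitted differences and bars 1 standard error. MYC (1.72) and GOLGA7 (-2.03) have short bars beside their size, and MED30 (0.32, black) was not called.

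Genes followed by the study beside MYC and MED30 mostly did not pass the test of the difference. The study named IL23R and IRAK2 as upregulated in PRO-seq of the co-overexpression but not of MYC alone, so these were chosen on samples of this series. PURA, CYSTM1, NRG2, IGIP and FUCA1 lie at loci it followed for MYC binding under MED30 overexpression. PABPC1 and PGK1 were its examples of known MYC targets under MED30 knockdown. IL23R, described above, was called higher. It also rose in the MYC-labelled line (log2 4.85, edgeR adjusted p = 1.58e-21), where MED30 and not MYC rose with Dox. IRAK2, a kinase of interleukin-1 receptor signalling, rose in the MED30&MYC line (log2 0.57, edgeR adjusted p = 0.00204) and stood at 0.32 (edgeR adjusted p = 0.0662) in the MYC-labelled line. Its difference of 0.25 (standard error 0.16, edgeR adjusted p = 0.568) did not pass. CYSTM1 (0.45) and NRG2 (-1.02) did not pass either (edgeR adjusted p = 0.123 and 0.0695), nor did FUCA1, PURA, IGIP, PABPC1 and PGK1 (edgeR adjusted p from 0.469 to 0.899).

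NF-kB is a family of transcription factors held in the cytoplasm by inhibitors and released by signals such as tumour necrosis factor, and its own inhibitors are among its targets. Of 37 tested genes on the NF-kB list, 8 had a higher response in the MED30&MYC line (21.6%, against 1.07% of all genes) and none a lower one. These counts were 14 and 0 at an unadjusted p under 0.05, where 12.5% of all genes passed in either direction. The median difference of the list was 0.31, against 0.035 for all genes. In the MED30&MYC line 10 members rose and 2 fell, against 3.65% and 3.09% of all genes, and in the MYC-labelled line 3 rose and 8 fell, against 5.32% and 7.71%. Calls were 2 to 10 when 1 library was left out: 2 and 3 without control 1 or 2 of the MYC-labelled line, 3 and 5 without control 1 or 2 of MED30&MYC, and 3 and 2 without its Dox library 1 or 2. The median stayed between 0.26 and 0.37 in these fits.

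BIRC3, an inhibitor of apoptosis and ubiquitin ligase of the TNF receptor complex, went from 113 and 118 CPM to 59.1 and 56.5 CPM with Dox in the MYC-labelled line. In the MED30&MYC line it stood at 121 and 104 CPM without and at 127 and 128 CPM with Dox. The difference was 1.13 (standard error 0.13, edgeR adjusted p = 1.36e-05), and the control levels of the lines overlapped. The adjacent BIRC2, a related inhibitor of apoptosis, differed by 0.60, from 454 and 465 to 329 and 312 CPM against 220 and 204 to 221 and 229 CPM. CSF1, a growth factor of macrophages, went from 60.1 and 55.4 to 31.1 and 29.4 CPM in the MYC-labelled line and from 52.1 and 63.2 to 51.9 and 57.6 CPM in the other, a difference of 0.94 (standard error 0.15, edgeR adjusted p = 0.00126). CFLAR, an inhibitor of caspase-8, and NFKBIA, the inhibitor that holds NF-kB in the cytoplasm, differed by 0.61 and 0.60. All 5 of these genes fell in the MYC-labelled line without a call in the MED30&MYC line.

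The 3 other called members showed the second pattern, a rise in the MED30&MYC line without a call in the MYC-labelled line. TNFAIP3, a feedback inhibitor of NF-kB, went from 19.8 and 10.3 CPM to 25.3 and 29.0 CPM there and differed by 1.13 (standard error 0.26, edgeR adjusted p = 0.0281). The subunit genes REL and NFKB1 differed by 0.65 and 0.60, and NFKB1 went from 156 and 145 CPM to 200 and 202 CPM in the MED30&MYC line. TNFAIP3 and REL have control replicates further apart than most, with REL at 84.1 and 57.4 CPM.

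RefSeq promoter windows, 250 bases before to 50 after 1 start used for each gene in GRCh38.p14, were held for 7 of these 8 genes. For some genes, CFLAR among them, that start lies inside the gene body. The NF-kB consensus, read on both strands, occurred in 6 of the 7 (85.7%), in 16 of 32 windows of the whole list (50%) and in 12.8% of the 14092 windows of all tested genes. Of the higher genes, 25 of 100 windows held it (25%), and of the lower genes 8 of 50 (16%). The 250 bases before the start are shown for BIRC3, chr11:102317234-102317483 (plus strand), which had the largest called difference of the list together with TNFAIP3, chr6:137867009-137867258 (plus strand). Capitals mark the matches to the NF-kB consensus, 2 in each.
BIRC3: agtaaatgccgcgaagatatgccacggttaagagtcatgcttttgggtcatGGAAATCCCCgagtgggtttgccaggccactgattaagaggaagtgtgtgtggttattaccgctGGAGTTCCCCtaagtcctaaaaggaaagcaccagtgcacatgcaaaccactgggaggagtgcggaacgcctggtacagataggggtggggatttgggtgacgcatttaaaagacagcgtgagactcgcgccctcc
TNFAIP3: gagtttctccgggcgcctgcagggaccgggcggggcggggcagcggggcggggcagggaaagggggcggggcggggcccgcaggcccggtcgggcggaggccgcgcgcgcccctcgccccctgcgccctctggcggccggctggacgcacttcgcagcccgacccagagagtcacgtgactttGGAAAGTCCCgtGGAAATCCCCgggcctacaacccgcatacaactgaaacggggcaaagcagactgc
A match is a description of these letters and shows no binding.

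Interferon response genes encode antiviral proteins and are switched on by the ISGF3 complex, which reads the interferon-stimulated response element (ISRE) in their promoters. All 53 genes of this list were tested, and 11 had a lower and 2 a higher response in the MED30&MYC line (24.5% called, against 1.07% of all genes). These counts were 15 and 3 at an unadjusted p under 0.05, where 12.5% of all genes passed in either direction. The median difference was -0.21, against 0.035 for all genes. By the calls in each line, 29 members rose and 1 fell in the MYC-labelled line (against 5.32% and 7.71% of all genes). In the MED30&MYC line 18 rose and 0 fell (against 3.65% and 3.09%). The controls of the MED30&MYC line were higher for 49 of the 53 genes, with a median log2 difference between control groups of 2.45, and 30% of all genes were higher there. The difference of responses and this contrast share the control libraries.

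IFIT3, which helps to hold viral RNA in an antiviral complex, went from 34.4 and 37.1 CPM to 76.2 and 64.2 CPM in the MYC-labelled line. In the MED30&MYC line it stood at 349 and 304 CPM without and at 374 and 373 CPM with Dox, so that its lowest value there was above every library of the other line. The difference was -0.80 (standard error 0.14, edgeR adjusted p = 0.00342). IFIT1, of the same complex, differed by -0.68, while IFIT2, their neighbour on chromosome 10, differed by 0.64 and fell in the MYC-labelled line, from 173 and 169 to 133 and 103 CPM. LIPA, a lysosomal lipase gene noted after its values were seen, which overlaps all 3 IFIT genes in the RefSeq annotation and lies on the strand opposite to IFIT1 and IFIT3, differed by -0.62.

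RSAD2, which encodes the antiviral protein viperin, went from 1.5 and 1.22 to 5.86 and 4.83 CPM in the MYC-labelled line and from 26.6 and 15.4 to 33.4 and 35.6 CPM in the other. Its difference was -1.46 (standard error 0.28, edgeR adjusted p = 0.00685), and CMPK2, the mitochondrial nucleotide kinase gene whose body overlaps it on the other strand, differed by -1.52. CMPK2 stood at 0.526 and 0.394 CPM in the MYC-labelled controls, from 13 and 9 counts. Its call did not hold in every fit with 1 library left out. Without the deep control of MED30&MYC the RSAD2 difference was -0.78 (edgeR adjusted p = 0.385). OAS1, OAS2 and OAS3, the synthetases that activate RNase L and neighbours on chromosome 12, differed by -0.98, -0.76 and -0.73, and OASL by -0.67. IFI6 (-0.79), the RNA helicase genes DDX60 (-0.73) and IFIH1 (-0.74) completed the lower set. OAS1 stood at 1.38 and 1.53 CPM in the MYC-labelled controls against 62.3 and 64.0 CPM in those of MED30&MYC.

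IFI27, an interferon-induced protein of mitochondria, went the other way. It stood at 5.02 and 3.98 CPM in the MYC-labelled controls and at 3.15 and 4.52 CPM with Dox, and went from 9.52 and 9.56 to 22.4 and 21.3 CPM in the MED30&MYC line. The difference was 1.42 (standard error 0.28, edgeR adjusted p = 0.00859), though it turned to -0.77 and was not called when every library was thinned to the depth of the shallowest. The 13 calls of the list were 1 and 3 without control 1 or 2 of the MYC-labelled line, 0 without control 1 of MED30&MYC and 4 without either of its Dox libraries. The list's median was -0.33 to -0.09 in the fits with 1 library left out.

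The core of the ISRE, a pair of TTTC letters parted by 2 bases of any kind and read on both strands, occurred in 6 of the 9 promoter windows held for the 11 lower interferon genes (66.7%), in 26 of 39 for the whole list (66.7%) and in 3.04% of all tested genes. The share was thus the same for the lower genes and for the list. Windows are shown for the helicase genes IFIH1, chr2:162318685-162318934 (minus strand), and DDX60, chr4:168318753-168319002 (minus strand), whose responses were lower in the MED30&MYC line, and for IFI27, chr14:94110486-94110735 (plus strand), whose response was higher. The IFI27 window lies inside its gene body, chr14:94105894-94116690. Capitals mark the ISRE core on either strand, 3 matches in IFIH1 and 2 in each of the others.
IFIH1: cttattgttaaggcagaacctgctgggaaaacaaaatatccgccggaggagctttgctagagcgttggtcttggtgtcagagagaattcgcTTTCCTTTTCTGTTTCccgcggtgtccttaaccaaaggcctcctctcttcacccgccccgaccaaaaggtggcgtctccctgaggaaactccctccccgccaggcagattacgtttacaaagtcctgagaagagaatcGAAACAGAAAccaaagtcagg
DDX60: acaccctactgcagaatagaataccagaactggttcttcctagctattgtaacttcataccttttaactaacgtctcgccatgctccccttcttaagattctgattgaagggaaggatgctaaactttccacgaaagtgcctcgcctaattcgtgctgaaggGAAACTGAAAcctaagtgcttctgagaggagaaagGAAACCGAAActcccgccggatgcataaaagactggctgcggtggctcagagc
IFI27: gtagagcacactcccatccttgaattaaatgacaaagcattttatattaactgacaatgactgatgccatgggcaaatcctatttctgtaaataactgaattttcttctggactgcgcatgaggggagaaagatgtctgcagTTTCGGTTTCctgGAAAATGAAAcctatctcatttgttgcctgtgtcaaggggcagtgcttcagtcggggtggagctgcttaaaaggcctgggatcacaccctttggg
Of the higher genes, 1 of 100 windows held the core (1%), that of IFI27, and of the lower genes 6 of 50 (12%), against 3.04% of all tested genes.

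**Figure D5:**
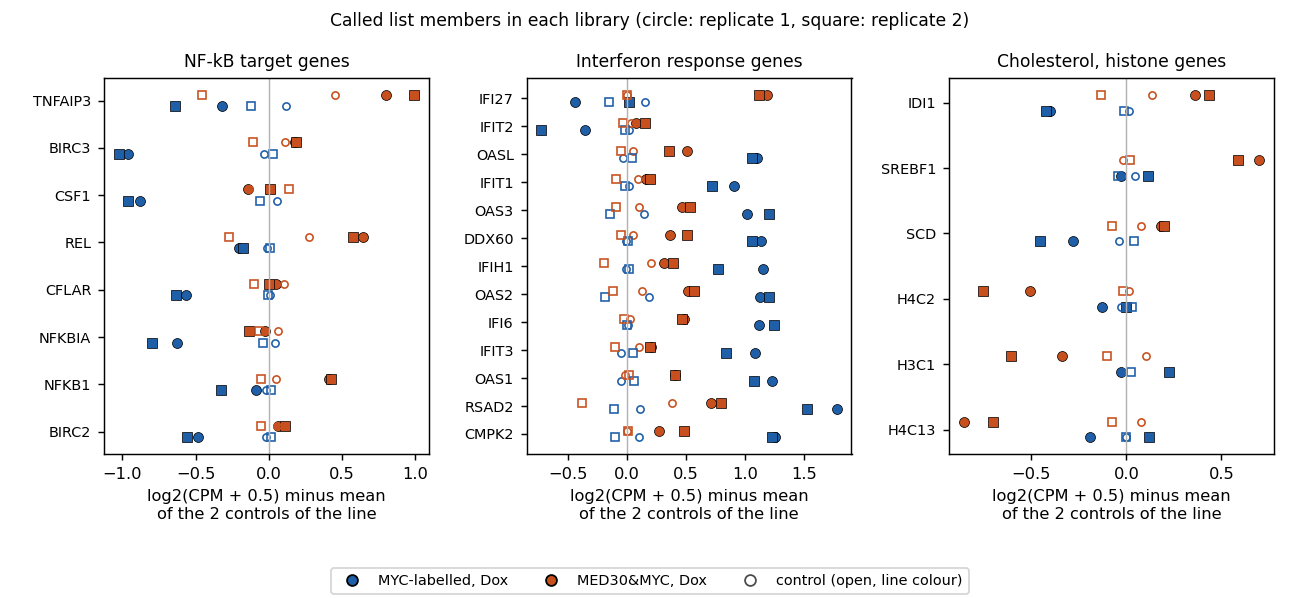
Called members of the NF-kB list (left), the interferon list (middle) and the cholesterol and histone lists (right) in each library, as log2(CPM + 0.5) minus the mean of the 2 controls of the same line; filled points are Dox libraries and open points controls, blue for the MYC-labelled and orange for the MED30&MYC line. BIRC3, CSF1 and NFKBIA lie left of 0 in the MYC-labelled Dox libraries and near 0 in the MED30&MYC ones, while the interferon genes other than IFI27 and IFIT2 lie further right in the MYC-labelled line.

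MYC target genes were read from the hallmark lists V1 and V2, which hold genes of ribosome production, splicing and translation. Of 194 tested V1 genes, 1 had a higher response in the MED30&MYC line (0.515%, against 1.07% of all genes called either way) and none a lower one. These counts were 28 and 4 at an unadjusted p under 0.05, where 12.5% of all genes passed in either direction. The called gene was IARS1, a tRNA synthetase gene, which went from 324 and 333 to 248 and 213 CPM in the MYC-labelled line and from 410 and 346 to 391 and 413 CPM in the other (difference 0.58, standard error 0.14, edgeR adjusted p = 0.0362). No V1 gene rose in the MED30&MYC line and 13 fell, where 3.65% and 3.09% of all genes did. In the MYC-labelled line 1 rose and 54 fell, against 5.32% and 7.71% of all genes. The median difference of V1 was 0.10 with TMM and -0.01 with library size alone, so that its direction is not settled. HSPD1 (0.52), CDC20 (-0.49) and PTGES3 (0.47) were next by p and did not pass (edgeR adjusted p from 0.0788 to 0.108).

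Of 55 V2 genes, UTP20, PRMT3 and RRP12 were called higher and none lower (5.45%, against 1.07% of all genes). At an unadjusted p under 0.05 these counts were 13 and 2, where 12.5% of all genes passed in either direction. The median was 0.10 with TMM and 0.00 with library size alone. UTP20 and RRP12, which mature the precursors of the small ribosomal subunit, differed by 0.63 and 0.57, and PRMT3, which methylates a ribosomal protein, by 0.66. UTP20 went from 118 and 126 to 99.8 and 87.6 CPM in the MYC-labelled line and from 126 and 108 to 134 and 153 CPM in the other. All 3 fell in the MYC-labelled line and had no call in the MED30&MYC line. The controls of the lines lay far apart for RRP12, at 885 and 852 CPM against 79.0 and 87.5 CPM.

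Of 73 ribosome biogenesis factors, the same 2 members UTP20 and RRP12 were called (2.74%, against 1.07% of all genes). The median was 0.14 with TMM and 0.03 with library size alone. In the MYC-labelled line 18 of them fell (against 7.71% of all genes), and in the MED30&MYC line 1 fell (against 3.09%). DDX21 (0.40) and WDR36 (0.42) did not pass (edgeR adjusted p = 0.166 and 0.218). None of 76 cytosolic ribosomal protein genes was called by edgeR, and 1 was by DESeq2. By edgeR 8 were higher and 2 lower at an unadjusted p under 0.05, where 12.5% of all genes passed in either direction. With 1 library left out, the calls ran from 0 to 10 for V1, from 0 to 6 for V2 and from 0 to 6 for the biogenesis factors, with the highest counts without Dox library 1 of the MYC-labelled line. The counts of V2 and of the biogenesis factors were 0 without either control of the MYC-labelled line or either Dox library of MED30&MYC, and that of V1 was 0 without those or control 2 of MED30&MYC. The biogenesis factors also had 0 calls without control 1 of MED30&MYC and 1 without its control 2, and V2 had 1 without its control 1.

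The MAX and MXD network sets how much MYC can act, since MNT and the MXD proteins pair with MAX on the same sites as repressors. Of 18 tested members MNT alone was called (5.56%, against 1.07% of all genes). It stood at 178 and 171 CPM and, with Dox, at 161 and 184 CPM in the MYC-labelled line. In the MED30&MYC line it stood at 32.4 and 39.0 CPM and, with Dox, at 52.6 and 52.1 CPM (difference 0.66, standard error 0.15, edgeR adjusted p = 0.0226). It rose in the MED30&MYC line only by the calls. MYCBP2 (0.36), MXD1 (0.32) and MXD3 (0.39) did not pass (edgeR adjusted p = 0.27 to 0.396), and the difference of MAX itself was 0.03. The MNT call was lost without either control of the MYC-labelled line, without control 1 of MED30&MYC or without either of its Dox libraries (edgeR adjusted p up to 0.346).

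The E-box CACGTG, the same on both strands, occurred in 14 of 100 promoter windows of higher genes (14%), in 7 of 50 of lower genes (14%) and in 9.12% of all tested genes. It was present in 21 of 165 windows of V1 genes (12.7%). It is shown in capitals for MNT, chr17:2401061-2401310 (minus strand), a called gene of the MAX network.
MNT: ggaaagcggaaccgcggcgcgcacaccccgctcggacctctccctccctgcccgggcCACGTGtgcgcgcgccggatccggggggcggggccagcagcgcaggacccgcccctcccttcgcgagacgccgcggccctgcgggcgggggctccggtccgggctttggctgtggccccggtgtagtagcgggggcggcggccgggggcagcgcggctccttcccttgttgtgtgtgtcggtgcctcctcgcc
Promoters of IARS1, UTP20 and PRMT3 also held 1 match each.

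None of the 32 Mediator genes beside MED30 was called in the difference by edgeR or DESeq2. By edgeR 3 were higher and 2 lower at an unadjusted p under 0.05, where 12.5% of all genes passed in either direction. MED25 (0.54), MED29 (0.38), MED6 (-0.40) and MED18 (-0.60) had the smallest p (edgeR adjusted p from 0.124 to 0.357). The median of the list was 0.11 with TMM and 0.00 with library size alone. Without Dox library 2 of the MYC-labelled line, 1 of the 32 was called, and without its Dox library 1 none was, though MED30 itself was (0.54, edgeR adjusted p = 0.037).

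Cholesterol synthesis genes are set by the SREBP factors, which are released when sterols in the endoplasmic reticulum run low. Of 30 tested genes on this list 3 were called higher and none lower (10%, against 1.07% of all genes). At an unadjusted p under 0.05 these counts were 18 and 0, against 12.5% of all genes in either direction. The median was 0.36 and lay between 0.24 and 0.49 under the 3 other scalings and the 8 fits with 1 library left out. In the MYC-labelled line 12 fell and none rose (against 7.71% and 5.32% of all genes). In the MED30&MYC line 3 rose and 1 fell (against 3.65% and 3.09%). Calls were 0 to 6 with 1 library left out: 0 and 1 without Dox library 2 or 1 of MED30&MYC, 1 without control 1 or 2 of the MYC-labelled line, 1 without control 1 of MED30&MYC, and 6 and 5 without Dox library 1 or 2 of the MYC-labelled line.

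IDI1, the isomerase that makes dimethylallyl diphosphate, went from 206 and 202 to 154 and 152 CPM in the MYC-labelled line and from 129 and 107 to 151 and 159 CPM in the MED30&MYC line. The difference was 0.76 (standard error 0.14, edgeR adjusted p = 0.00317), with opposite calls in the 2 lines. SREBF1, which encodes an SREBP factor, rose from 74.7 and 76.5 to 123 and 114 CPM in the MED30&MYC line (difference 0.61), and SCD, the stearoyl-CoA desaturase, differed by 0.55. FDPS (0.62), which makes farnesyl diphosphate, did not pass (edgeR adjusted p = 0.0643), nor did HMGCS1 (0.49, edgeR adjusted p = 0.086), the synthase at the start of the pathway, although it fell by 0.68 in the MYC-labelled line.

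Replication-dependent histone genes are transcribed in S phase in clusters on chromosomes 6 and 1. Of 48 tested, 3 had a lower response in the MED30&MYC line and none a higher one (6.25%, against 1.07% of all genes). At an unadjusted p under 0.05 these counts were 13 and 0, where 12.5% of all genes passed in either direction. A difference above 0 was seen for 4. The median was -0.21. Members fell in both lines, 38 in the MED30&MYC line (against 3.09% of all genes) and 25 in the MYC-labelled line (against 7.71%). H4C13 went from 31.9 and 28.7 to 16.5 and 18.4 CPM in the MED30&MYC line and from 24.7 and 24.7 to 21.6 and 26.9 CPM in the other (difference -0.82, standard error 0.18, edgeR adjusted p = 0.0212). The adjacent H3C1 and H4C2 differed by -0.65 and -0.58, and H1-4, a linker histone gene, by -0.57 without passing (edgeR adjusted p = 0.0757). Reads of near-identical histone copies could be split between rows. With 1 library left out the 3 calls were 0 without control 1 or 2 of the MYC-labelled line or control 1 of MED30&MYC, 1 without Dox library 1 of MED30&MYC, 2 without its control 2 or Dox library 2, and 7 and 5 without Dox library 1 or 2 of the MYC-labelled line. H4C2 was the last gene inside the threshold (edgeR adjusted p = 0.0486), and TMEM151A, at a mean log2 CPM of -0.23, the first outside it (edgeR adjusted p = 0.0505).

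Of 59 mitosis genes, CENPA and CDC25B had lower responses and none a higher one (3.39%, against 1.07% of all genes called either way), with 16 and 3 at an unadjusted p under 0.05, where 12.5% of all genes passed in either direction. CENPA, the histone variant of centromeres, went from 27.9 and 29.7 to 46.9 and 50.3 CPM in the MYC-labelled line and from 69.7 and 70.6 to 79.4 and 73.9 CPM in the other (difference -0.62, edgeR adjusted p = 0.0232). CDC25B, a phosphatase that starts mitosis, fell in the MED30&MYC line only by the calls (difference -0.60). PLK1, a mitotic kinase, differed by -0.61 without passing (edgeR adjusted p = 0.0843). The median of the list, -0.13, was 0.02 without control 1 of MED30&MYC. Its 2 calls were 0 without either control of the MYC-labelled line, control 1 of MED30&MYC or either of its Dox libraries, and 6 and 9 without Dox library 1 or 2 of the MYC-labelled line.

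Of 38 immediate early and ERK feedback genes, KLF10, NR4A1 and KLF4 had higher responses and none a lower one (7.89%, against 1.07% of all genes). At an unadjusted p under 0.05 these counts were 9 and 6, where 12.5% of all genes passed in either direction. KLF10, a TGF-beta-induced zinc finger factor, went from 46.0 and 42.8 to 35.6 and 32.1 CPM in the MYC-labelled line and from 33.6 and 33.8 to 42.2 and 45.4 CPM in the other (difference 0.78, standard error 0.15, edgeR adjusted p = 0.00859). NR4A1, an orphan nuclear receptor, differed by 0.65, with controls at 822 and 795 CPM against 67.8 and 80.9 CPM. KLF4, a zinc finger factor, rose in the MED30&MYC line only by the calls (difference 0.62), and CCN1, a matrix protein gene, stood at -0.47 (edgeR adjusted p = 0.0797). The median was 0.08 with TMM and -0.03 with library size alone. The 3 calls were 0 without control 1 of either line or Dox library 2 of MED30&MYC, 1 without control 2 of the MYC-labelled line or Dox library 1 of MED30&MYC, and 6 and 7 without Dox library 1 or 2 of the MYC-labelled line.

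The apoptosis list held BIRC3, BIRC2 and CFLAR as its only called members of 39 (7.69%, against 1.07% of all genes). Its median was 0.02 (-0.08 with library size alone), and CASP4, an inflammatory caspase gene, stood at -0.78 (edgeR adjusted p = 0.133). Of further lists, 2 of 40 glycolysis and hypoxia genes (ENO2 and ADM, 5%) and 1 of 26 p53 targets (PHLDA3, 3.85%) had lower responses. A higher one was called for 1 of 32 chaperone genes (HSPA1B, 3.12%) and 1 of 35 amino acid stress genes (SLC7A11, 2.86%). It was also called for 1 of 53 ER genes (DNAJB9, 1.89%), 1 of 53 elongation genes (NELFE, 1.89%) and 1 of 57 mitochondrial genes (NDUFB10, 1.75%). Of all genes 1.07% were called either way, and nothing is read from such small counts. Of 30 tested genes on the YAP and TEAD list (6.67% called), AMOTL2 was lower and TEAD3, one of the TEAD factors, higher (0.61). These genes of the further lists are named after their values were seen. SLC7A11, the cystine transporter, went from 68.2 and 70.9 to 36.4 and 29.5 CPM in the MYC-labelled line and from 85.7 and 68.4 to 68.8 and 70.2 CPM in the MED30&MYC line, a difference of 0.85. No gene of the antigen presentation, replication, matrix, small RNA host or chromosome 8 neighbour lists was called by edgeR. Each had 0 to 7 genes at an unadjusted p under 0.05, where 12.5% of all genes passed.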

How the data were processed

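PRO-seq libraries of Mia PaCa-2 lines were analysed, 2 per group in 4 groups. By the study's methods, reads were trimmed with Trim Galore, aligned to hg38 with Bowtie2 and counted sense to RefSeq genes by featureCounts 2.0.3, and the authors deposited raw counts for these 8 libraries. The 4 tables labelled MED30 were deposited by the authors as scaled whole-number values, treated here as a score and used only to check labels. The submitters' processing notes also name DESeq2 2.11.40.8.

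Counts were filtered (filterByExpr), scaled by TMM and fitted in 1 model of 4 groups with the quasi-likelihood test of edgeR 4.0.16 in R 4.3.3. The interaction contrast was tested two-sided, with Benjamini-Hochberg adjustment over 19318 genes at 0.05. Alternatives used DESeq2 1.42.0, limma 3.58.1 (voom), other scalings and filters, thinning, replicate blocks and each library left out in turn. Scripts were tested on simulated counts.

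Named genes were MYC, MED30, the loci followed by the study, the 12 largest called differences each way with a mean log2 CPM above 2 and the Dox-over-control log ratios of the lines not overlapping, up to 4 members per discussed list with the smallest p, and called neighbours within 100 kb. A few genes that meet this rule are not reported here. The members and lists were chosen with earlier results of these data known. Total counts per library were 20616713 to 29881914, and 1257499 in the shallow control, where 1 count was 0.735 CPM and 0.0316 to 0.0468 CPM elsewhere. No molecular identifiers are named in the sources used here.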

Additional observations from a re-analysis of the deposited data

Results flagged for a closer look

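The Dox response differed between the 2 lines by a test of the difference itself for 207 genes, which marked the genes named here for a closer look. The values are differences of log2 responses, MED30&MYC minus MYC-labelled.

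Higher in the MED30&MYC line at a difference of at least 1 were DACH1 (1.98), LOC100507642 (1.88), HSD17B10 (1.73), MYC (1.72), IL23R (1.63), BTK (1.60), LINC01060 (1.58), LINC00304 (1.52), NXPH3 (1.46), TUBA3FP (1.42), IFI27 (1.42), LINC02525 (1.37), CDH15 (1.24) and BIRC3 (1.13). Higher by less than 1 were CSF1 (0.94), KLF10 (0.78), THAP7-AS1 (0.78), IDI1 (0.76), PRMT3 (0.66), MNT (0.66), NR4A1 (0.65), UTP20 (0.63), KLF4 (0.62), CFLAR (0.61), SREBF1 (0.61), BIRC2 (0.60), IARS1 (0.58), RRP12 (0.57) and SCD (0.55).

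Lower at a difference of -1 or beyond were GOLGA7 (-2.03), CMPK2 (-1.52), CCM2L (-1.46), RSAD2 (-1.46), TMEM40 (-1.42), ZNF563 (-1.24), ENO2 (-1.21), IL15RA (-1.16), ZIC5 (-1.11), LINC01970 (-1.11) and LINC02004 (-1.09). Lower by less were AMOTL2 (-0.90), H4C13 (-0.82), IFIT3 (-0.80), OASL (-0.67), H3C1 (-0.65), CENPA (-0.62), CDC25B (-0.60) and H4C2 (-0.58). MYC, GOLGA7, BIRC3 and AMOTL2 passed the threshold with any 1 library left out.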

How the results depend on the processing

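The count of 207 genes was 321 with upper quartile scaling, 326 with library size alone, 316 with no filter on low counts, 321 with a mean log2 CPM above 2, 22 with counts thinned to the shallowest library and 1970 by the thresholds from the study's text. It was 252 with DESeq2's size factors, 168 with DESeq2, 170 with voom and 231 without small RNA rows. With 1 library left out it ran from 18 to 876, lowest without control 1 of MED30&MYC and highest without Dox library 1 of the MYC-labelled line. It was 450 without Dox library 2 of that line, 50 and 57 without its controls 1 and 2, and 62 and 65 without Dox library 1 and 2 of MED30&MYC. The MYC difference kept its direction and call throughout. The MED30 difference ran from 0.12 to 0.54 with 1 library left out and was called at 0.54, without Dox library 1 of the MYC-labelled line.

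The correlation of replicate differences between controls and Dox libraries was -0.188 in the MYC-labelled line and -0.0108 in the MED30&MYC line. Neither value was positive, but this cannot tell whether same-numbered libraries were prepared together. In the MED30&MYC line control 2 held 1257499 counts, so its replicate difference carries much sampling noise. With the replicate block within each line the count was 139, and with a common replicate block 254. With the replicate block and the numbers of the MYC-labelled line crossed, an alternative chosen after seeing the data, it was 311.

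Several genes turned direction. When thinned, PURA was 0.15, IGIP 0.91, PGK1 0 and IFI27 -0.77. With library size alone PABPC1 was -0.06. With 1 library left out, FUCA1 ran from -0.72 to 0.10, PURA from -0.35 to 0.30, NRG2 from -1.12 to 0.08, PABPC1 from -0.05 to 0.21 and PGK1 from -0.28 to 0.19. Of these genes IFI27 alone was called with all libraries, and the cause was not tested. Depth limits low genes most, since 1 count in the shallow control is 0.735 CPM.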

Other observations

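PER1, PER2 and CRY1 were picked after their values were seen, from the 0.714% of tested genes with a higher response in the MED30&MYC line, and the other genes of the circadian clock were not counted. PER1, a repressor of the circadian clock, stood at 167 and 158 CPM in the MYC-labelled controls and at 139 and 153 CPM with Dox, and went from 12.3 and 11.8 to 21.7 and 20.3 CPM in the MED30&MYC line (difference 0.94, standard error 0.16, edgeR adjusted p = 0.00173). PER2 and CRY1, of the same repressor complex, differed by 0.76 and 0.57 (edgeR adjusted p = 0.0212 and 0.0342). The levels of PER1 did not overlap between the lines in any group. For PER2 the controls of the MED30&MYC line read 26.5 and 41.9 CPM and its Dox libraries 43.5 and 46.7 CPM.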
